A study of Rattus norvegicus with 12 samples.

Results

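Kidney grafts taken from brain dead donor rats and sampled 1 h after transplantation were compared with normal kidneys, so the comparison carries brain death and transplantation together. The 6 arrays compared, of 12 in the series, are the 3 grafts numbered 21, 23 and 27 and the 3 normal kidneys numbered 1, 2 and 3, each assigned by its title. All animals were inbred male Lewis rats, and every graft was an isograft, exchanged between genetically alike animals. Donors of the grafts had a gradual rise of intracranial pressure until the brain stem herniated and were ventilated for 6 h. Their left kidney was then placed into a recipient with 30 min of operative ischemia, and the recipient's right kidney was removed. The labels name no ventilation, ischemia or surgery for the normal kidneys. Brain death, ventilation, ischemia, reperfusion and surgery therefore cannot be told apart in this comparison. Beside these, 3 brain dead donor kidneys not yet transplanted (0 h, after the same 6 h) and 3 grafts of living donors 1 h after transplantation (30 min of ischemia, without brain death) were used where values are set side by side. A free-text label that is the same on all 12 arrays describes a brain dead donor graft at 1 h, which contradicts the titles of the other groups and was not used.

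RNA of each kidney was hybridised against a pool of RNA from 3 normal kidneys. A value is the log2 ratio of the kidney over that pool, so that 1 is a 2-fold higher signal. Every kidney carried the dye Cy3 and the pool Cy5, so an effect of the dyes on a gene stays in its ratios and was not tested. Ratios of normal kidneys can thus lie off 0, as for Rhob (-0.92, -1.04 and -0.97), and the differences between groups are what is read. The comparison covers all 9653 genes that had a single symbol, among 18478 features that also hold 8825 unnamed probes. The difference between the means of the 3 grafts and the 3 normal kidneys, with its standard error (SE), is called the log2 difference. It passed where the adjusted p of limma, after the Benjamini-Hochberg method over all 18478 features, lay under 0.05. Levels of different genes cannot be set against each other in such ratios, and neither can the kidney's own marker genes be checked for presence. RNA came from whole kidney tissue, in which fewer cells of a type and less RNA per cell cannot be told apart.

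Brain death releases catecholamines and cytokines into the circulation, and the lining of blood vessels answers by displaying selectins and chemokines that recruit leukocytes. Clamping and reopening of the renal vessels deprives the tubules of oxygen and then floods them with it. Cells answer such stress within minutes with immediate early genes, which need no new protein for their transcription, and later with chaperones, antioxidant enzymes and cell cycle inhibitors. The proximal tubule, which reabsorbs most of the filtrate and depends on mitochondrial respiration, is the nephron segment most easily harmed by ischemia.

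The grafts differed from normal kidneys in 2814 of 18478 features (15.2%), 1136 higher (6.15%) and 1678 lower (9.08%). Among named genes, 698 rose (7.23%) and 812 fell (8.41%). Of all features, 203 that passed rose at least 2-fold (1.1%) and 182 fell at least 2-fold (0.985%). Among named genes these counts were 132 (1.37%) and 56 (0.58%). The median log2 difference was 0.01 over named genes and 0.00 over all features, and among features that passed it was 0.52 for those higher and -0.50 for those lower. The 3 against 3 arrays did not overlap in 34.6% of all features (35.7% of named genes), and 18 of the 2814 that passed did overlap. The count was 1769 without normal kidney 1 and 1875 without normal kidney 2.

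**Figure D1:**
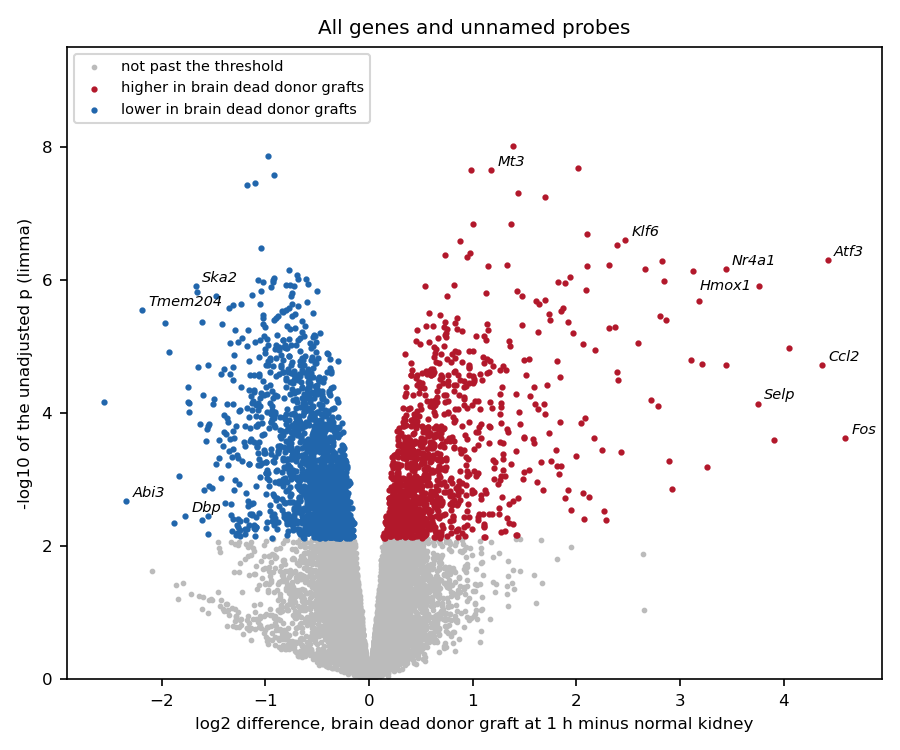
Each point is a named gene or unnamed probe: the x axis is the log2 difference, brain dead donor graft at 1 h minus normal kidney, and the y axis is minus log10 of the unadjusted limma p. Red points passed higher (1136), blue points passed lower (1678) and grey points did not pass; increases reach further from 0 (Fos, 4.59) than decreases of named genes (Abi3, -2.34).

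By its correlations, graft 21 stood apart from the other arrays. Its mean correlation over all features was 0.85 with its own group and 0.72 with normal kidneys, against 0.89 and 0.83 for graft 23 and 0.88 and 0.82 for graft 27. Grafts 23 and 27 had a higher mean correlation with brain dead donor kidneys at 0 h (0.91 for each) than with their own group. That own-group mean includes graft 21, so it does not show that these grafts were less like each other than like kidneys at 0 h. The median SD of named genes was 0.105 log2 units among the grafts and 0.0865 among normal kidneys. Without graft 21 the count of features that passed was 2173. Where leaving out 1 array moved a list's count of members higher or lower by more than 1.5 times, that is given with the list, as a count or, for a single member, as the number of 6 such fits in which it passed.

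Of the 20 largest increases among named genes, 6 were on the list of immediate early genes, 5 on that of cytokines and chemokines and 2 on that of adhesion and coagulation. Birc3, Cebpd, Hmox1, Igfbp1 and Ifit3 each stood on 1 further list, and Rnd1 and Rasd1 on none. Fos, a subunit of the transcription factor AP-1, had log2 ratios of 5.75, 3.42 and 3.30 in grafts 21, 23 and 27, against -0.93, -0.18 and -0.20 in normal kidneys 1, 2 and 3. The 20 were chosen among genes whose 3 against 3 arrays did not overlap, so every graft lay above every normal kidney. For Fos, graft 21 lay more than 2 log2 units above the other grafts. The log2 difference of Fos was 4.59 ± 0.82 (SE, adjusted p = 0.00555, limma), a 24.1-fold increase, and it was 3.80 without graft 21. Atf3, a stress-induced transcription factor, had 4.52, 3.65 and 4.35 in the grafts, against -0.21, -0.52 and -0.02 in normal kidneys (log2 difference 4.42 ± 0.39, adjusted p = 0.000422, limma). Here the 3 grafts lay close together.

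Ccl2, the chemokine that attracts monocytes, had log2 ratios of 5.32, 3.45 and 3.95 in the grafts, against -0.32, -0.03 and -0.05 in normal kidneys, a 20.7-fold increase (4.37 ± 0.57, adjusted p = 0.00143, limma). Rnd1, a small GTPase that loosens the actin cytoskeleton, rose by 4.05 ± 0.50 on the log2 scale. Cxcl10, an interferon-induced chemokine for T cells, had 3.89, 2.10 and 4.48 in the grafts, against -0.10, -0.96 and -0.19 in normal kidneys. Graft 23 was the lowest of the grafts for Cxcl10 and, by the rule of choice, still lay above every normal kidney. Its log2 difference was 3.91 ± 0.70 (adjusted p = 0.00571, limma) and 4.60 without graft 23. Klf6, a zinc finger factor of tissue injury, had the smallest of these 20 increases (2.47 ± 0.20) but the smallest adjusted p among them (0.000302, limma). Its log2 ratios were 2.85, 2.35 and 2.46 in the grafts, against 0.20, -0.16 and 0.21 in normal kidneys, with little spread in either group.

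**Figure D2:**
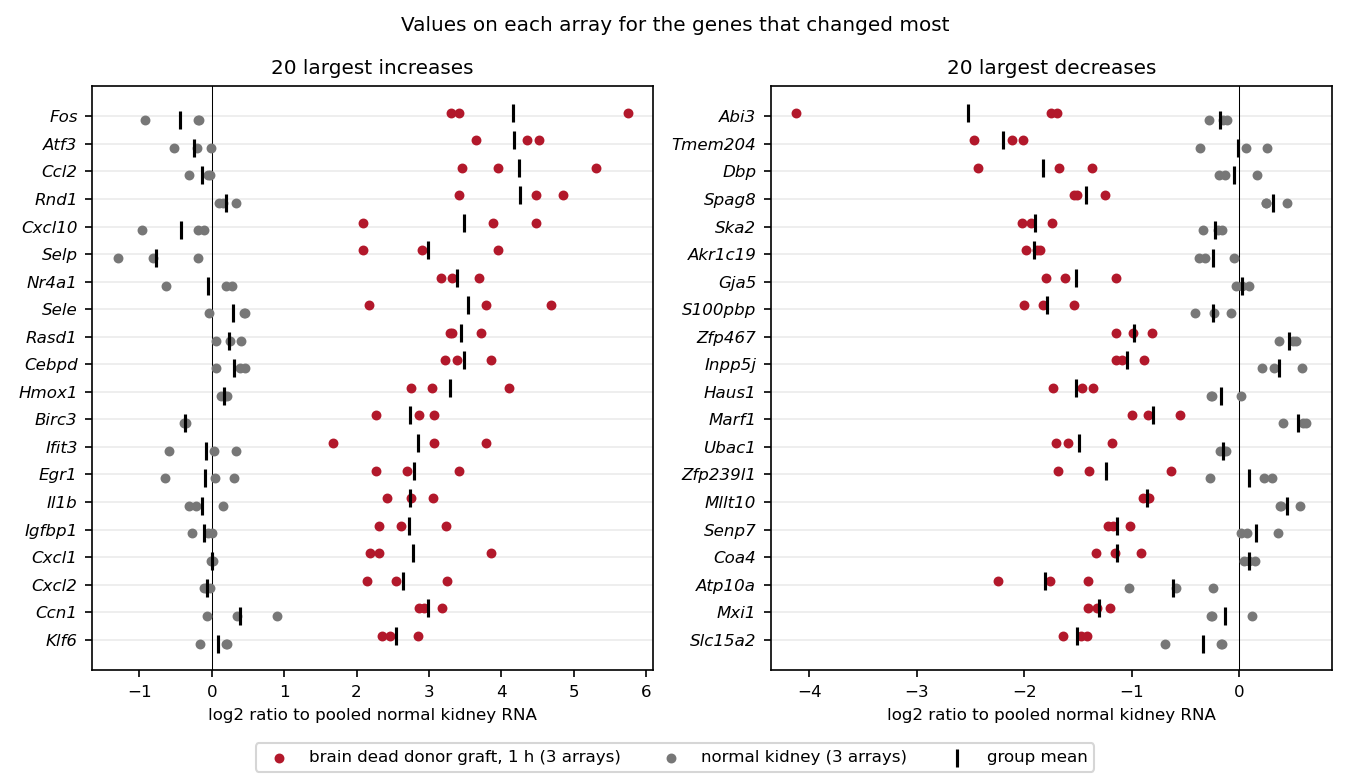
Log2 ratios to pooled normal kidney RNA on each array (points) and group means (black bars) for the 20 largest increases, left, and the 20 largest decreases, right; red points are brain dead donor grafts at 1 h and grey points normal kidneys. No red and grey points overlap within a gene, by the rule of choice, and graft 21 gives the outermost points of Fos (5.75) and Abi3 (-4.12).

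Promoters of genes with the largest increases were searched for letters that known stress and inflammation factors bind. RefSeq (GRCr8) gave a promoter, from 250 bases before to 50 after the start of the gene, for 12 of the 20 largest increases. Searched on both strands were the NF-kB site and the CArG box of serum response factor, each by its usual consensus, and the AP-1 site TGANTCA, the cyclic AMP response element TGACGTCA and the heat shock element core GAANNTTC. At least 1 of these was found in 7 of the 12. The 4 promoters printed 5′ to 3′ on the gene's own strand have the most kinds of site, then the largest increase, and capitals mark the matched letters.
Cxcl10: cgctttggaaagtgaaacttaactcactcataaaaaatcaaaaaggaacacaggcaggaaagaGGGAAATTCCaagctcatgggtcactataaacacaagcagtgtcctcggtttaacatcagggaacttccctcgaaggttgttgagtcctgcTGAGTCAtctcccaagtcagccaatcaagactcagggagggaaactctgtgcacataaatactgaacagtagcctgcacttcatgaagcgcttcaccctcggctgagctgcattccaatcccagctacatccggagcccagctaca
Nr4a1: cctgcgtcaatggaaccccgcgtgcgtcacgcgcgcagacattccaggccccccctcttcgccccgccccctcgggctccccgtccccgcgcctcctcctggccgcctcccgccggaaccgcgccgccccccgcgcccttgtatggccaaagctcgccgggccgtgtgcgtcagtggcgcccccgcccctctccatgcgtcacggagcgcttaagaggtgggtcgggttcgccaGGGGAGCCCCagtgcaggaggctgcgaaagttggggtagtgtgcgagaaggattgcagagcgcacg
Ifit3: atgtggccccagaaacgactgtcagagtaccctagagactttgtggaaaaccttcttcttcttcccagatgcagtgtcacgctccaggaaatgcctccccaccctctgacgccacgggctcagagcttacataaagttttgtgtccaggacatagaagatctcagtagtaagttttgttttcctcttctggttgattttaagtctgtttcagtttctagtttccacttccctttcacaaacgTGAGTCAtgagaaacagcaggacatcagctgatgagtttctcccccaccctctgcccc
Egr1: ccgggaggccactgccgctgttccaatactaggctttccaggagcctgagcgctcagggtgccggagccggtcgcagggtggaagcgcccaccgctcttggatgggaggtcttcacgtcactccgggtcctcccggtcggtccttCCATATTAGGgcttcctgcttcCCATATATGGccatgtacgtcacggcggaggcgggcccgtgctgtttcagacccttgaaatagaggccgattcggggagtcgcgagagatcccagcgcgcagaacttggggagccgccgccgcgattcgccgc

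The Cxcl10 window (GRCr8, chr14:15988816-15989115, plus strand) holds an NF-kB match that begins at -187 from the start and an AP-1 match at -96. The Nr4a1 window (chr7:134259888-134260187, plus strand) holds an NF-kB match at -16, and the Ifit3 window (chr1:241527076-241527375, plus strand) an AP-1 match at -8. The Egr1 window (chr18:26736828-26737127, plus strand) holds CArG matches at -105 and -83. Of the windows not printed, that of Cxcl1 has the NF-kB match GGGAATTTCC at -84, that of Cxcl2 has GGGGATTTCC at -74, each overlapping a further match 1 base on, and that of Klf6 has a CArG match at -201. An NF-kB match was found in 4 of the 12 windows (33.3%), against 5.16% of the 7947 measured genes with a window and 4.16% of all 27457 windows. The windows of Cxcl1 and Cxcl2 are both on chr14 and match in nearly the same letters, so they may not count as separate cases. AP-1 matches were in 2 of the 12 (16.7%), against 5.44% of measured genes and 7.33% of all windows. CArG matches were in 2 (16.7%), against 1.37% and 1.64%. Neither the cyclic AMP response element nor the heat shock core was found in the 12. Among 16 windows of the 20 largest decreases, none held an NF-kB match and 1 held an AP-1 match. A heat shock core was in 3 of these 16 (18.8%), against 5.54% of measured genes and 8.34% of all windows. A match is a run of letters and was not tested as a binding site.

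Of 26 measured immediate early genes, 20 rose and none fell, and their median log2 difference was 1.59, against 0.01 over all named genes, of which 7.23% rose. The mean log2 ratio of the list was 1.81, 1.50 and 1.45 in the grafts, against -0.07, 0.01 and 0.14 in normal kidneys. Nr4a1, an orphan nuclear receptor, had 3.16, 3.69 and 3.32 in the grafts, against -0.63, 0.19 and 0.29 in normal kidneys (3.44 ± 0.31, adjusted p = 0.00043, limma). Graft 21, highest for Fos, was the lowest graft for Nr4a1. Egr1, a zinc finger transcription factor, had 3.42, 2.69 and 2.28 in the grafts, against -0.64, 0.31 and 0.04 in normal kidneys (2.89 ± 0.57, adjusted p = 0.00887, limma). Ccn1, a secreted matrix protein and target of serum response factor, rose by 2.60 ± 0.31 on the log2 scale.

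The AP-1 subunits Junb, Jund and Jun rose less than Fos, by 1.92 ± 0.44, 1.75 ± 0.19 and 1.68 ± 0.38 on the log2 scale. Graft 21 was the highest for all of these, with Jun at 2.84 there, against 1.40 and 1.45 in grafts 23 and 27. Myc, the growth-promoting factor, rose by 1.92 ± 0.21, and Klf4 by 1.82 ± 0.23. Members that did not pass were Arc (0.27), Egr3 (0.15), Egr4 (0.13), Fosl2 (0.10), Id1 (0.04) and Fosl1 (0.04), so the AP-1 members Fosl1 and Fosl2 lay near 0. Without graft 21, 17 of the 26 rose. Jun, Junb and Srf passed in 4, 5 and 4 of 6 fits that left out 1 array, with adjusted p of 0.0613 for Jun and for Junb without normal kidney 1 and of 0.0716 for Srf without normal kidney 2 (limma). The probes of Ier2 disagreed (1.87 and 0.52), as did those of Srf, the serum response factor itself (0.93, 0.10 and 0.44).

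MAP kinase phosphatases, mRNA decay factors and related feedback genes restrain such signals. Of 20 measured, 10 rose and none fell (median log2 difference 0.60). The count was 6 without graft 21, graft 23 or normal kidney 3, and 4 without normal kidney 1 or 2. Sgk1, a kinase that raises sodium transport and responds to corticosteroids, had 1.70, 1.67 and 1.93 in the grafts, against 0.26, -0.88 and -0.80 in normal kidneys (2.24 ± 0.42, adjusted p = 0.00701, limma). Rgs2, which damps G protein signalling, had 1.35, 1.50 and 1.61 in the grafts, against -0.06, -0.02 and -0.08 in normal kidneys. The groups were far apart for Rgs2 (1.54 ± 0.20). Dusp1, a phosphatase of MAP kinases, rose by 1.39 ± 0.34 and passed in 3 of 6 fits that left out 1 array (adjusted p up to 0.0776 without normal kidney 1, limma). Zfp36, which speeds decay of cytokine mRNA, rose by 1.18 ± 0.31, passed in 2 of those 6 fits (adjusted p 0.0931 without graft 21, limma), and its probes read 2.01 and 0.36. Dusp6 (0.55) and Socs3 (0.07) did not pass.

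Targets of the inflammatory factor NF-kB rose in 11 of 20 measured cases and fell in none, with a median log2 difference of 0.53. Thus 55.0% passed, against 15.6% of all named genes, and the count was 7 without graft 21 or normal kidney 1 or 2. Birc3, an inhibitor of apoptosis, had 2.86, 2.27 and 3.07 in the grafts, against -0.39, -0.35 and -0.38 in normal kidneys (3.10 ± 0.40, adjusted p = 0.00134, limma). Nfkbia, the inhibitor that NF-kB induces against itself, had 2.92, 2.53 and 2.44 in the grafts, against 0.33, 0.27 and 0.35 in normal kidneys (2.32 ± 0.21, adjusted p = 0.000422, limma). In each of these genes the normal kidneys agreed to within 0.1 log2 units, and the grafts lay about 2 units or more above them. Map3k8, a kinase of inflammatory signalling, rose by 2.18 ± 0.27, and Tlr2, a receptor for bacterial products, by 1.27 ± 0.27. Nfkbiz, a nuclear cofactor, rose by 1.16 ± 0.30 and passed in 2 of the 6 fits that left out 1 array (adjusted p up to 0.0789 without normal kidney 2, limma), and its probes read 2.18 and 0.14. The genes of the factor's own subunits did not pass, with Nfkb1 at 0.12, Nfkb2 at -0.03 and Rela at -0.06.

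Among cytokines and chemokines 9 of 28 measured rose, 1 fell, and the median log2 difference was 0.19. So 35.7% passed, against 15.6% of all named genes. Il1b, interleukin 1 beta, had 3.06, 2.42 and 2.75 in the grafts, against -0.32, -0.22 and 0.16 in normal kidneys (2.87 ± 0.31, adjusted p = 0.000764, limma). The neutrophil attractant Cxcl1 had 3.85, 2.31 and 2.19 in the grafts, with normal kidneys all within 0.05 of 0 (2.78 ± 0.43, adjusted p = 0.0029, limma). Cxcl2, a further neutrophil attractant, had 3.25, 2.15 and 2.55 in the grafts, against -0.08, -0.11 and -0.03 in normal kidneys (2.72 ± 0.41, adjusted p = 0.00259, limma). Both were highest in graft 21. Il6, the inducer of the acute phase response, had 3.39, 1.00 and 1.89 in the grafts, against -0.31, -0.21 and -0.01 in normal kidneys. Its log2 difference was 2.27 ± 0.58 (adjusted p = 0.0269, limma) and 1.62 without graft 21, and it passed in 1 of the 6 fits that left out 1 array (adjusted p up to 0.0784 without normal kidney 1). Il33, a nuclear alarmin, fell by 0.54 ± 0.08. Tnf had 0.91, 0.52 and 0.35 in the grafts, against 0.59, 0.22 and 0.49 in normal kidneys, and did not pass, and neither did Il10 (0.16), Ccl5 (0.19) or Csf2.

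In the list of adhesion molecules and coagulation factors 7 of 20 rose and none fell (median 0.15, 35.0% passed, against 15.6% of named genes). Selp, P-selectin of endothelium and platelets, had 2.91, 2.10 and 3.95 in the grafts, against -0.81, -0.19 and -1.30 in normal kidneys (3.75 ± 0.58, adjusted p = 0.0028, limma), a 13.5-fold increase. Sele, the endothelial E-selectin, had 4.68, 2.17 and 3.79 in the grafts, against 0.44, -0.04 and 0.46 in normal kidneys (3.26 ± 0.67, adjusted p = 0.0101, limma). Graft 23 was the lowest graft for each selectin, and the Sele difference was 3.95 without it. Vcam1, a ligand for leukocyte integrins, had 2.35, 1.39 and 2.92 in the grafts, against 0.36, -0.98 and -0.01 in normal kidneys (2.43 ± 0.46, adjusted p = 0.00738, limma). Icam1, its relative, had 1.97, 1.63 and 1.84 in the grafts, against 0.24, 0.07 and 0.29 in normal kidneys (1.61 ± 0.16, adjusted p = 0.000571, limma). The spread of Icam1 within each group was far below the gap between them. F3, tissue factor, the initiator of coagulation, rose by 0.87 ± 0.12, and Plat, tissue plasminogen activator, by 0.43 ± 0.09. Thbd, the anticoagulant thrombomodulin, rose by 0.62 ± 0.19 (adjusted p = 0.048, limma) and passed in 0 of the 6 fits that left out 1 array. Vwf (0.13), Procr (0.15) and Tfpi (-0.03) did not pass.

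Of 16 measured genes of the STAT3 and acute phase list, 4 rose (median 0.32). Cebpd, which helps switch on acute phase genes, had 3.85, 3.22 and 3.39 in the grafts, against 0.39, 0.06 and 0.47 in normal kidneys, a 9.1-fold increase (3.19 ± 0.32, adjusted p = 0.000571, limma). Il4r, the interleukin 4 receptor chain, rose by 1.26 ± 0.19 and Il6r by 0.93 ± 0.16. Pim3, a kinase gene, rose by 0.45 ± 0.11 and had -0.01 after quantile normalization of the arrays (adjusted p = 0.966, limma). Lcn2, a secreted marker of tubular injury, had 1.25, 1.24 and 2.37 in the grafts, against -0.11, -0.04 and 0.01 in normal kidneys. The groups did not overlap for Lcn2, but its difference of 1.66 ± 0.50 narrowly missed the threshold (adjusted p = 0.0524, limma). The fibrinogen genes Fga (0.83), Fgb (0.23) and Fgg (0.11) did not pass.

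Of 32 measured genes of complement, interferon response and antigen presentation, 2 rose and 1 fell (median 0.23), and 1 rose without graft 27 or normal kidney 2. The 9.4% that passed is below the 15.6% of all named genes. Ifit3, an interferon-induced antiviral gene, had 3.07, 1.68 and 3.79 in the grafts, against 0.34, -0.59 and 0.03 in normal kidneys (2.92 ± 0.67, adjusted p = 0.0163, limma). It passed in 4 of 6 fits that left out 1 array (adjusted p 0.06 without normal kidney 2, limma). Gbp2, a further interferon target, had 1.18, 0.61 and 2.92 in the grafts, with normal kidneys within 0.1 of 0, and did not pass (adjusted p = 0.115, limma). Ifit1 (0.28), Irf7 (0.34) and Stat2 (0.22) did not pass. C1qb, a chain of complement C1q, rose by 0.94 ± 0.20. C5ar1, the receptor for complement fragment C5a, had -1.88, -1.37 and -1.0 in the grafts, against -0.22, -0.47 and -0.18 in normal kidneys. It fell by 1.13 ± 0.29 (adjusted p = 0.029, limma), and it passed in 1 of the 6 fits, with 0.0902 without graft 21.

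Of 25 measured genes of the response to misfolded protein and amino acid stress, 13 rose and none fell (median 0.45). Thus 52.0% passed, against 15.6% of all named genes, and 8 rose without normal kidney 2. The factor Atf4, which drives this programme, had 1.61, 1.57 and 1.69 in the grafts, against 0.22, 0.22 and 0.14 in normal kidneys (1.43 ± 0.10, adjusted p = 9.19e-05, limma). Ppp1r15a, which restores translation, had 2.07, 2.27 and 2.52 in the grafts, against 0.43, 0.25 and 0.50 in normal kidneys (1.89 ± 0.18, adjusted p = 0.000455, limma). In both genes the arrays of a group lay within 0.5 log2 units of each other. Ddit4, an inhibitor of growth signalling, rose by 1.12 ± 0.11, the stress protein Sesn2 by 1.03 ± 0.12 and the amino acid transporter Slc7a5 by 0.93 ± 0.13. Herpud1, of the degradation of endoplasmic reticulum proteins, rose by 0.82 ± 0.08, and Ddit3, a factor that promotes cell death, by 0.66 ± 0.10. Hspa5 (0.42), Asns (0.09), Eif2ak3 (0.02) and Pdia4 (-0.27) did not pass. The probes of Chac1, which passed as their mean, disagreed (1.58 and -0.02).

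Heat shock genes split by member rather than moving together, with 4 of 26 measured higher, 3 lower and a median log2 difference of -0.01. In this list 26.9% passed, against 15.6% of all named genes. Hspa1a, the inducible HSP70, had 2.22, 2.62 and 2.38 in the grafts, against 0.07, 0.09 and 0.12 in normal kidneys, a 4.98-fold increase (2.32 ± 0.26, adjusted p = 0.000844, limma). Its cochaperone Dnajb1 rose by 0.44 ± 0.09, and Bag3 by 0.50 ± 0.13, which passed in 2 of the 6 fits that left out 1 array (adjusted p up to 0.101 without normal kidney 2, limma). Hspa4, a nucleotide exchange factor of HSP70, had -0.56, -0.80 and -0.90 in the grafts, against 0.23, 0.02 and 0.11 in normal kidneys. It fell by 0.88 ± 0.09 (adjusted p = 0.000711, limma). Chordc1, an HSP90 cochaperone, fell by 0.34 ± 0.06. Hsp90aa1 (0.07), Hspa8 (-0.25), Hspd1 (-0.11) and the regulator Hsf1 (0.01) did not pass.

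In the antioxidant and metallothionein list, 9 of 32 measured genes rose and 1 fell (median 0.11), and 2 fell without normal kidney 3. Of the list 31.2% passed, against 15.6% of all named genes. Hmox1, heme oxygenase 1, had 2.75, 3.04 and 4.10 in the grafts, against 0.18, 0.12 and 0.21 in normal kidneys, an 8.72-fold increase (3.12 ± 0.28, adjusted p = 0.00044, limma). Its probes gave log2 differences of 4.15 and 2.10. The metal-binding metallothioneins rose by 1.37 ± 0.10 (Mt1), 1.30 ± 0.25 (Mt2A) and 1.18 ± 0.07 (Mt3). These genes belong to 1 family, and how far their probes share signal was not tested. Mt3 had 1.15, 1.01 and 1.28 in the grafts, with normal kidneys within 0.05 of 0 (adjusted p = 6.92e-05, limma). Sod2, the mitochondrial superoxide dismutase, had 1.13, 0.70 and 1.55 in the grafts, against -0.03, -0.30 and -0.11 in normal kidneys (1.28 ± 0.20, adjusted p = 0.00301, limma). Catalase, Cat, fell by 0.49 ± 0.09, with -1.11, -1.10 and -1.24 in the grafts, against -0.60, -0.66 and -0.72 in normal kidneys. Nqo1, a quinone reductase, rose by 0.82 ± 0.12, while Gclm (-0.53), Srxn1 (0.09) and the regulator Nfe2l2 (0.09) did not pass.

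Of 27 measured hypoxia and glycolysis genes, 5 rose and 2 fell (median 0.16), so that 25.9% passed, against 15.6% of all named genes. Without normal kidney 1, 3 rose and 1 fell, and 1 fell without normal kidney 2. Bhlhe40, a repressor that responds to hypoxia and to the clock, rose by 1.14 ± 0.15, the vasodilator Adm by 1.00 ± 0.14 and the glucose transporter Slc2a1 by 0.51 ± 0.10 (probes 0.84 and 0.17). Ndrg1 rose by 0.86 ± 0.21 and passed in 3 of the 6 fits that left out 1 array (adjusted p up to 0.0792 without normal kidney 1, limma). Mxi1, an antagonist of Myc, had -1.20, -1.40 and -1.32 in the grafts, against 0.12, -0.25 and -0.26 in normal kidneys, and fell by 1.18 ± 0.18. Other hypoxia targets did not pass, among them Vegfa (-0.30), Epo (0.05), Pdk1 (0.01), Pgk1 (0.08) and Ldha (0.36). In the respiratory chain, 1 of 33 measured genes rose (Uqcrq, 0.26 ± 0.07, which passed in 2 of the 6 fits) and none fell (median -0.03). The 3.0% that passed is below the 15.6% of all named genes.

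Of 21 measured genes of corticosteroid response and the daily clock, 7 rose and 3 fell (median 0.14). Here 47.6% passed, against 15.6% of all named genes. Without normal kidney 1, 4 rose, and 1 fell without graft 27 or normal kidney 3. Fkbp5, a chaperone that glucocorticoids induce, rose by 1.21 ± 0.25, with probes at 1.76, 1.30 and 0.57. Per1, a clock repressor that corticosteroids also induce, had 1.38, 2.03 and 1.65 in the grafts, against 0.61, -0.20 and 0.16 in normal kidneys (1.49 ± 0.31, adjusted p = 0.0112, limma). Klf9 rose by 1.05 ± 0.28 and passed in 1 of the 6 fits that left out 1 array (adjusted p up to 0.103 without normal kidney 2, limma). Bmal1, an activator of the clock, rose by 1.01 ± 0.23 (adjusted p 0.0605 without normal kidney 1, limma). Dbp, a clock output factor, had -1.68, -1.37 and -2.43 in the grafts, against -0.19, -0.13 and 0.16 in normal kidneys, a fall of 1.77 ± 0.47 (adjusted p = 0.0303, limma). Dbp passed in 1 of the 6 fits, with 0.0912 without graft 27. The part of the hour of day in these values was not tested. Tsc22d3, a further glucocorticoid target, did not pass (0.42), Nr3c2, the mineralocorticoid receptor, fell by 0.62 ± 0.10, and the glucocorticoid receptor Nr3c1 did not pass (-0.37).

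Genes of p53 and apoptosis rose in 9 of 25 measured cases and fell in 1 (median 0.38). Among them 40.0% passed, against 15.6% of all named genes. Gadd45b, a sensor of stress and DNA damage, had 1.68, 2.44 and 1.82 in the grafts, against 0.13, 0.17 and 0.11 in normal kidneys (1.84 ± 0.25, adjusted p = 0.00164, limma). Gadd45a rose by 1.33 ± 0.23, and Plk2, a p53-induced kinase, by 1.54 ± 0.32 with 2.08, 1.04 and 0.93 in the grafts, highest in graft 21. Some genes that favour survival rose, with Cflar, which blocks caspase 8, at 1.26 ± 0.17 and Mcl1 at 0.62 ± 0.07 (probes 1.12 and 0.11). Casp8 fell by 0.39 ± 0.09, and the receptors Tnfrsf1a and Fas rose by 1.06 ± 0.18 and 0.56 ± 0.15. Casp8 passed in 3 and Fas in 1 of 6 fits that left out 1 array (adjusted p up to 0.0644 without normal kidney 3 and 0.0979 without normal kidney 2, limma). Bax (-0.13), Bcl2 (-0.29), Mdm2 (0.23) and Ccng1 (0.21) did not pass, and Cdkn1a, the p21 cell cycle inhibitor, rose by 0.43 ± 0.11 but passed in 2 of the 6 fits that left out 1 array (adjusted p up to 0.0801 without normal kidney 3, limma).

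Of 21 measured genes that mark injured tubules, 7 rose and none fell (median 0.30), so that 33.3% passed, against 15.6% of all named genes. The count higher was 4 without normal kidney 1 or 3, and 1 fell without normal kidney 1. Anxa1, an anti-inflammatory annexin, had 0.89, 0.72 and 1.28 in the grafts, against -0.36, -0.39 and -0.64 in normal kidneys (1.43 ± 0.14, adjusted p = 0.000487, limma). Tubb6, a tubulin, rose by 1.19 ± 0.16 (probes 1.89 and 0.50), and Cd44, a hyaluronan receptor, by 0.60 ± 0.14, which passed in 4 of the 6 fits (adjusted p up to 0.0629 without normal kidney 1, limma). Spp1, osteopontin, had 0.18, 0.91 and 1.24 in the grafts, against -0.38, -0.02 and -0.53 in normal kidneys, and did not pass (1.08 ± 0.36, adjusted p = 0.0705, limma). Vim (0.17), Krt19 (-0.20) and Mmp7 (-0.06) did not pass.

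Among growth factors, 4 of 25 rose (median 0.06), and 2 did without graft 21 or normal kidney 3. The 16.0% that passed is near the 15.6% of all named genes. Igfbp1, which binds insulin-like growth factors, had 2.31, 2.61 and 3.24 in the grafts, against -0.27, 0.00 and -0.06 in normal kidneys (2.83 ± 0.25, adjusted p = 0.000422, limma), and the EGF receptor ligand Areg rose by 1.01 ± 0.14. Among vasoactive genes, 4 of 25 rose and 3 fell (median 0.05, 28.0% passed), and 1 fell without normal kidney 2 or 3. Edn1, the vasoconstrictor endothelin 1, had 0.66, 0.41 and 0.94 in the grafts, against -0.87, -0.85 and -1.20 in normal kidneys (1.64 ± 0.17, adjusted p = 0.000597, limma). Apln, a vasodilator peptide, rose by 1.26 ± 0.27. The natriuretic peptide receptors Npr1 and Npr3 fell by 0.40 ± 0.05 and 0.57 ± 0.13, and Npr3 passed in 4 of the 6 fits that left out 1 array (adjusted p up to 0.0583 without normal kidney 2, limma). Nos2 (-0.08) and Nos3 (0.13), which make nitric oxide, did not pass. In the list of matrix and proteases 3 of 27 rose and 1 fell (median 0.03), with Mmp14 at 0.49 ± 0.09. The 14.8% of this list that passed is near the 15.6% of all named genes. Mmp3, a stromelysin, fell by 0.28 ± 0.08 (adjusted p = 0.0492, limma) and passed in 1 of the 6 fits that left out 1 array, with 0.133 without graft 21. Adamts1 had 1.28 ± 0.37 (adjusted p = 0.0427, limma) and passed in 0 of the 6 fits. Of 27 lipid and PPAR genes 5 rose and 1 fell (median 0.17, 22.2% passed), and 3 rose without graft 23 or 27. Ucp3, a mitochondrial uncoupling protein, fell by 0.72 ± 0.19 (adjusted p = 0.03, limma) and passed in 1 of the 6 fits, with 0.0856 without graft 21. Fabp1, a fatty acid carrier, had 1.05, 0.72 and 1.91 in the grafts, against -0.92, -0.08 and -1.29 in normal kidneys (1.99 ± 0.39, adjusted p = 0.00809, limma), and Plin2, which coats lipid droplets, rose by 1.60 ± 0.25.

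**Figure D3:**
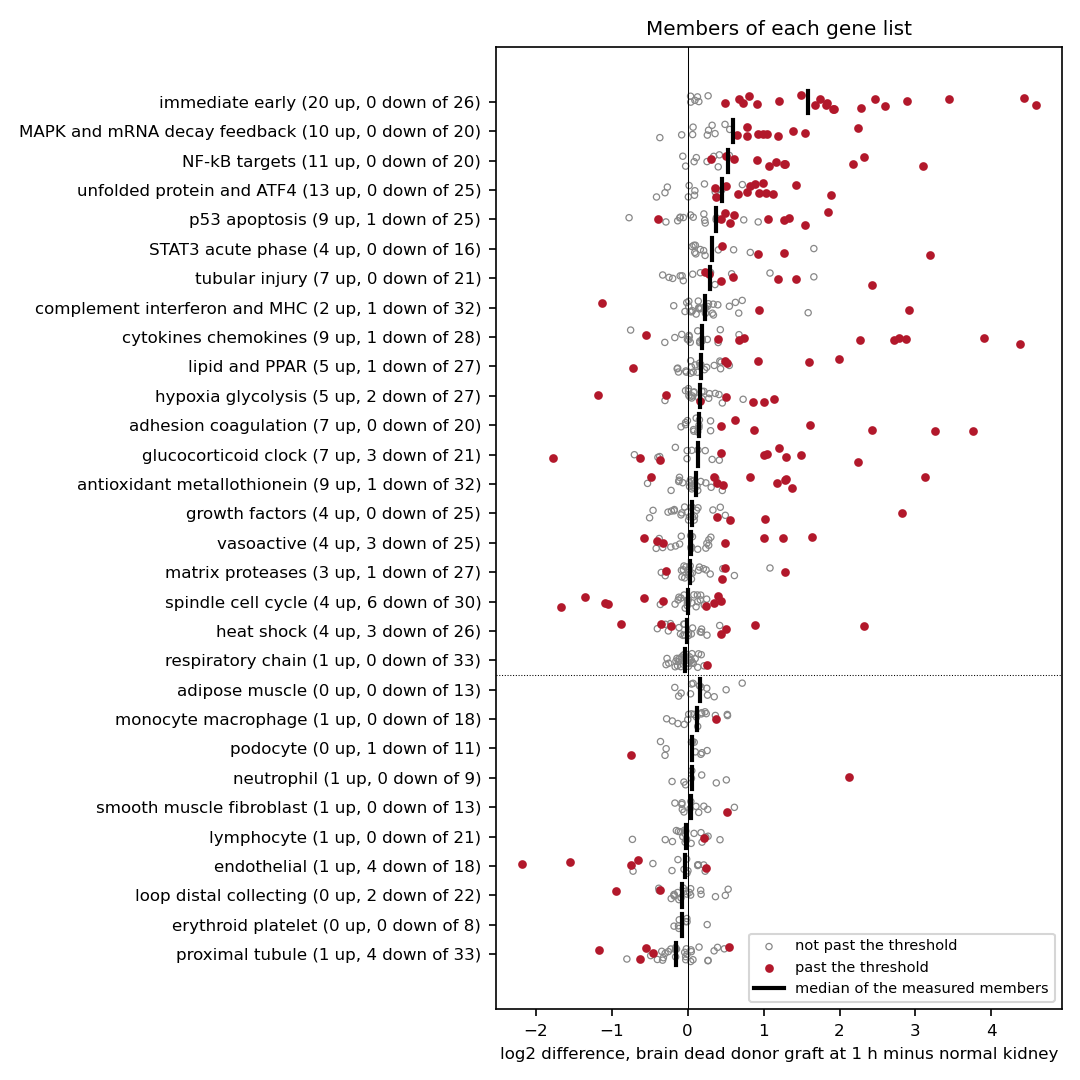
Each circle is a measured member of a gene list, placed on the x axis by its log2 difference, brain dead donor graft at 1 h minus normal kidney; filled circles passed, open circles did not, and black bars are list medians. Pathway lists stand above the dotted line and cell type markers below it; the immediate early list lies furthest right (median 1.59), and the marker lists have medians from -0.15 to 0.16.

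Of the 20 largest decreases among named genes, which lay between -2.34 and -1.17, 13 were on none of the gene lists. Abi3, an adaptor of the actin-regulating WAVE complex, had -4.12, -1.70 and -1.75 in the grafts, against -0.11, -0.28 and -0.15 in normal kidneys (-2.34 ± 0.57, adjusted p = 0.0215, limma). Graft 21 alone lay below -2, the difference was -1.54 without it, and Abi3 passed in 3 of 6 fits that left out 1 array (adjusted p up to 0.0639 without normal kidney 1, limma). Tmem204, a membrane protein of endothelial junctions, had -2.11, -2.01 and -2.47 in the grafts, against 0.26, -0.37 and 0.07 in normal kidneys (-2.19 ± 0.23, adjusted p = 0.000667, limma). All 3 grafts were similar for Tmem204, at 0.22 of the normal level. Akr1c19, an aldo-keto reductase, had -1.88, -1.99 and -1.85 in the grafts, against -0.05, -0.37 and -0.32 in normal kidneys (-1.66 ± 0.16, adjusted p = 0.000491, limma). Gja5, the gap junction protein connexin 40 of arterial endothelium and renin cells, had -1.79, -1.15 and -1.62 in the grafts, against 0.03, 0.09 and -0.03 in normal kidneys (-1.55 ± 0.20, adjusted p = 0.00143, limma). By the rule of choice, the 3 grafts lay below every normal kidney for Akr1c19 and Gja5, as for the rest of these 20. Graft 23 was the highest graft for Gja5.

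Other large decreases were those of Senp7, a SUMO protease (-1.29 ± 0.15), Ubac1 of the ubiquitin system (-1.34 ± 0.16), Inpp5j, an inositol phosphatase (-1.41 ± 0.16), and Coa4, which helps assemble cytochrome c oxidase (-1.23 ± 0.14). Mllt10, a chromatin cofactor, fell by 1.30 ± 0.16 as the mean of 2 probes that disagree, at -2.69 and 0.09. The probes of Spag8 (-1.75 ± 0.25) gave -2.26 and -1.23. S100pbp, Atp10a and Zfp239l1 fell by 1.55 ± 0.35, 1.19 ± 0.28 and 1.33 ± 0.33, and passed in 5, 3 and 2 of the 6 fits that left out 1 array. Their adjusted p reached 0.0556 and 0.067 without normal kidney 1, for S100pbp and Atp10a, and 0.078 without normal kidney 2, for Zfp239l1 (limma).

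Spindle genes were lower in part of their list. Of 30 measured genes of the spindle and cell cycle 4 rose and 6 fell, and the median log2 difference was 0.00. So 33.3% passed, against 15.6% of all named genes. Without normal kidney 3, 2 rose and 3 fell, and 2 rose without graft 27 or normal kidney 1 or 2. Ska2, of the complex that ties chromosomes to the spindle, had -2.02, -1.94 and -1.74 in the grafts, against -0.19, -0.16 and -0.33 in normal kidneys (-1.67 ± 0.16, adjusted p = 0.000455, limma). Its partner Ska1 fell by 1.09 ± 0.24 and passed in 5 of 6 fits that left out 1 array (adjusted p 0.0524 without normal kidney 3, limma). Haus1, of the augmin complex that branches microtubules, had -1.73, -1.36 and -1.47 in the grafts, against 0.02, -0.26 and -0.25 in normal kidneys (-1.35 ± 0.14, adjusted p = 0.000646, limma). The groups were well apart for Haus1 and Ska2. Ccnb2, a mitotic cyclin, fell by 1.05 ± 0.21, while Pcna, of the replication fork, rose by 0.34. The proliferation genes Mki67 (-0.12), Top2a (-0.03), Cdk1 (0.01) and Plk1 (0.06) did not pass.

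Of 33 measured proximal tubule genes 1 rose and 4 fell (median -0.15), so that 15.2% passed, near the 15.6% of all named genes. Slc15a2, a peptide transporter, had -1.47, -1.42 and -1.64 in the grafts, against -0.17, -0.16 and -0.69 in normal kidneys (-1.17 ± 0.14, adjusted p = 0.00108, limma). Hao2, a peroxisomal oxidase, fell by 0.63 ± 0.10 and Lrp2, the endocytic receptor megalin, by 0.54 ± 0.12. Slc34a1, the phosphate transporter, fell by 0.45 ± 0.12 and passed in 2 of 6 fits that left out 1 array (adjusted p up to 0.0885 without normal kidney 3, limma). Cyp24a1, which degrades vitamin D, rose by 0.55 ± 0.11. Aqp1 (-0.02), Cubn (-0.02) and Slc22a6 (-0.40) did not pass. Of 22 genes of the loop, distal tubule and collecting duct 2 fell (9.1%, median -0.07), and 1 fell without graft 23, graft 27 or normal kidney 2 or 3. They were Casr, the calcium receptor (-0.94 ± 0.15), and Hsd11b2, which inactivates corticosterone (-0.36 ± 0.10), which passed in 1 of 6 fits (adjusted p up to 0.115 without normal kidney 2, limma). Umod (-0.02), Aqp2 (0.17) and Slc12a3 (-0.13) did not pass. Of 11 podocyte genes 1 fell (9.1%), Podxl, a surface sialomucin that endothelium also carries (-0.75 ± 0.14).

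Endothelial markers split. Of 18 measured 1 rose and 4 fell (median -0.03), and 2 fell without graft 21, graft 27 or normal kidney 1 or 3. Of the list 27.8% passed, against 15.6% of all named genes. Beside Tmem204 and Gja5, the growth factor receptor Kdr fell by 0.65 ± 0.17 and the adrenomedullin receptor subunit Ramp2 by 0.74 ± 0.20. Each of these passed in 2 of the 6 fits that left out 1 array, with adjusted p up to 0.0992 for Kdr without normal kidney 1 and up to 0.109 for Ramp2 without normal kidney 3 (limma). Ramp2 had -1.12, -0.38 and -1.11 in the grafts, against 0.01, -0.45 and 0.07 in normal kidneys, so that graft 23 and normal kidney 2 overlapped. Pecam1, present on all endothelium, rose by 0.25 ± 0.06 and passed in 2 of the 6 fits (adjusted p up to 0.0701 without normal kidney 2, limma), and Cdh5 (0.14), Vwf (0.13), Tek (-0.72) and Emcn (-0.46) did not pass. The mean log2 ratio of the list was -0.32, -0.13 and -0.38 in the grafts, against 0.07, -0.03 and 0.06 in normal kidneys. These means include Tmem204 and Gja5, which were chosen for low values in these grafts, while the list's median log2 difference was -0.03. The rise of selectins, Vcam1 and Icam1 stands beside these values, and the part of endothelial cell number in it was not tested.

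Of 9 measured neutrophil genes 1 rose, so that 11.1% passed, against 15.6% of all named genes. It was S100a9, a calcium-binding protein of neutrophils and monocytes. S100a9 had 1.22, 1.98 and 3.16 in the grafts, with normal kidneys within 0.05 of 0 (2.12 ± 0.50, adjusted p = 0.0195, limma). It passed in 3 of the 6 fits that left out 1 array (adjusted p up to 0.0594 without normal kidney 1, limma). Its partner S100a8 did not pass (-0.03 ± 0.46), nor did Itgam (0.19), Cxcr2 (0.06) or Mmp8 (-0.20). The mean log2 ratio of the neutrophil list was 0.02, 0.23 and 0.61 in the grafts, against -0.16, -0.07 and 0.07 in normal kidneys. Graft 21 lay within the range of normal kidneys. These means include S100a9, while the median log2 difference of the list was 0.06. Of 18 monocyte and macrophage genes 1 rose (5.6%), Cd14 (0.37 ± 0.10), and of 21 lymphocyte genes 1 rose (4.8%), Cd3d (0.21 ± 0.05). Cd14 and Cd3d passed in 1 and 2 of 6 fits that left out 1 array (adjusted p 0.0647 and 0.056 without graft 21, limma). None of 8 erythroid and platelet genes and none of 13 adipose and muscle genes passed, though 1 of the 13 rose without normal kidney 1 or 2. In the smooth muscle and fibroblast list 1 of 13 rose (7.7%), Tagln (0.52 ± 0.13), and 2 rose without normal kidney 3. Tagln passed in 2 of the 6 fits (adjusted p = 0.0813 without graft 21, limma). The part of blood cells in the rise of Il1b, Ccl2 and the selectins was not tested.

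The same fit gave each stage against normal kidney and the graft against each stage. These comparisons share arrays, so their values are set side by side and no likeness between them was computed. Set against brain dead donor kidneys at 0 h, brain dead donor grafts passed in 10 of 18478 features (0.0541%), and set against living donor grafts, in 1249 (6.76%). Against normal kidneys, 860 features (4.65%) passed for brain dead donor kidneys at 0 h and 135 (0.731%) for living donor grafts. Of the 20 largest increases, 9 also passed higher against living donor grafts, where 2.5% of named genes did, and 2 against kidneys at 0 h, where 0.0518% did. Of the 20 largest decreases, 15 also passed lower against living donor grafts, where 4.82% of named genes did. None of them passed against kidneys at 0 h, and 0% of named genes were called lower there. Both sets of 20 were chosen for their values in these same grafts. Counts above the shares of all named genes therefore follow in part from the choice and are no separate support.

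Of 28 measured cytokines and chemokines, 9 rose in brain dead donor grafts and 6 in brain dead donor kidneys at 0 h, where 2.75% of named genes did. None rose in living donor grafts, where 0.725% of named genes did (limma with Benjamini-Hochberg adjustment). At an unadjusted p under 0.05 (limma), 4 of the 28 were higher there, and the share of all named genes at that cut was not computed. In the adhesion and coagulation list of 20, 7, 6 and 1 rose in the same order of groups. Ccl2 differed from normal kidneys by 4.37 in brain dead donor grafts, by 4.14 in brain dead donor kidneys at 0 h and by 0.85 in living donor grafts on the log2 scale. The brain dead donor grafts exceeded living donor grafts by 3.53 ± 0.57 (adjusted p = 0.00866, limma). Selp differed from normal by 3.75, 4.16 and 0.17 in the same order of groups, and Sele by 3.26, 3.31 and -0.32. Both selectins passed between grafts of brain dead and living donors (3.59 ± 0.58 and 3.58 ± 0.67, adjusted p = 0.0084 and 0.0138, limma). Hmox1 differed from normal by 3.12 in brain dead donor grafts, 2.20 in brain dead donor kidneys at 0 h and 0.26 in living donor grafts. Il1b (2.87, 3.05 and 1.10) and Cxcl1 (2.78, 2.76 and 0.35) had the same order of living donor grafts below the others, and passed between the grafts (adjusted p = 0.0118 and 0.0117, limma). Not all of the largest increases passed in these comparisons. Cxcl10 differed from normal by 3.91, 2.98 and 2.61 and did not pass between the grafts (adjusted p = 0.329, limma). Cxcl2 (1.56) and Ifit3 (2.54) did not pass in kidneys at 0 h (adjusted p = 0.0638 and 0.0624, limma). The metallothionein Mt1 passed between the grafts, with 1.37, 1.07 and 0.32 (adjusted p = 0.00161, limma).

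Of the 26 measured immediate early genes, 20 rose in brain dead donor grafts, 5 in brain dead donor kidneys at 0 h and 16 in living donor grafts, with medians of 1.59, 0.59 and 1.42. At an unadjusted p under 0.05 (limma), 20, 11 and 21 were higher in the same order of groups. Set against kidneys at 0 h, 2 of the 26 passed in brain dead donor grafts, and 16 were higher at an unadjusted p under 0.05 (limma). Fos differed from normal kidneys by 4.59 in brain dead donor grafts, 0.77 in brain dead donor kidneys at 0 h and 5.25 in living donor grafts. Between the grafts, Fos differed by -0.66 ± 0.82 (adjusted p = 0.698, limma), and between brain dead donor grafts and kidneys at 0 h by 3.82 ± 0.82, which did not pass (adjusted p = 0.151, limma). Nr4a1 differed from normal by 3.44, 0.89 and 4.29, Egr1 by 2.89, 0.56 and 3.83, and Ccn1 by 2.60, 0.67 and 2.93, in the same order. Egr1 and Ccn1 did not pass between brain dead donor grafts and kidneys at 0 h (adjusted p = 0.176 and 0.1, limma). Klf6 differed from normal by 2.47, 0.94 and 2.50 and passed in each group, at 0 h with an adjusted p of 0.0306 (limma). Nr4a1 and Klf6 passed between brain dead donor grafts and kidneys at 0 h (2.55 ± 0.31 and 1.53 ± 0.20, adjusted p = 0.0315 and 0.0339, limma). The other named genes that passed there were Ddit4 (1.02 ± 0.11), F3 (0.95 ± 0.12) and Tgif1, a repressor of TGF-beta signalling (0.65), all higher in the grafts. A p that misses the threshold does not show that the groups are alike.

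Some genes were raised in each group. Atf3 differed from normal kidneys by 4.42 in brain dead donor grafts, 2.06 in brain dead donor kidneys at 0 h and 4.52 in living donor grafts, and all of these passed (adjusted p = 0.000422, 0.0199 and 0.00064, limma). Nfkbia (2.32, 1.71 and 2.42), Rasd1 (3.21, 2.02 and 2.89), Cebpd (3.19, 2.26 and 2.19) and Atf4 (1.43, 0.89 and 1.24) also passed in each group. For Cebpd the brain dead donor graft had the highest mean, but its difference from living donor grafts did not pass (0.99 ± 0.32, adjusted p = 0.107, limma).

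**Figure D4:**
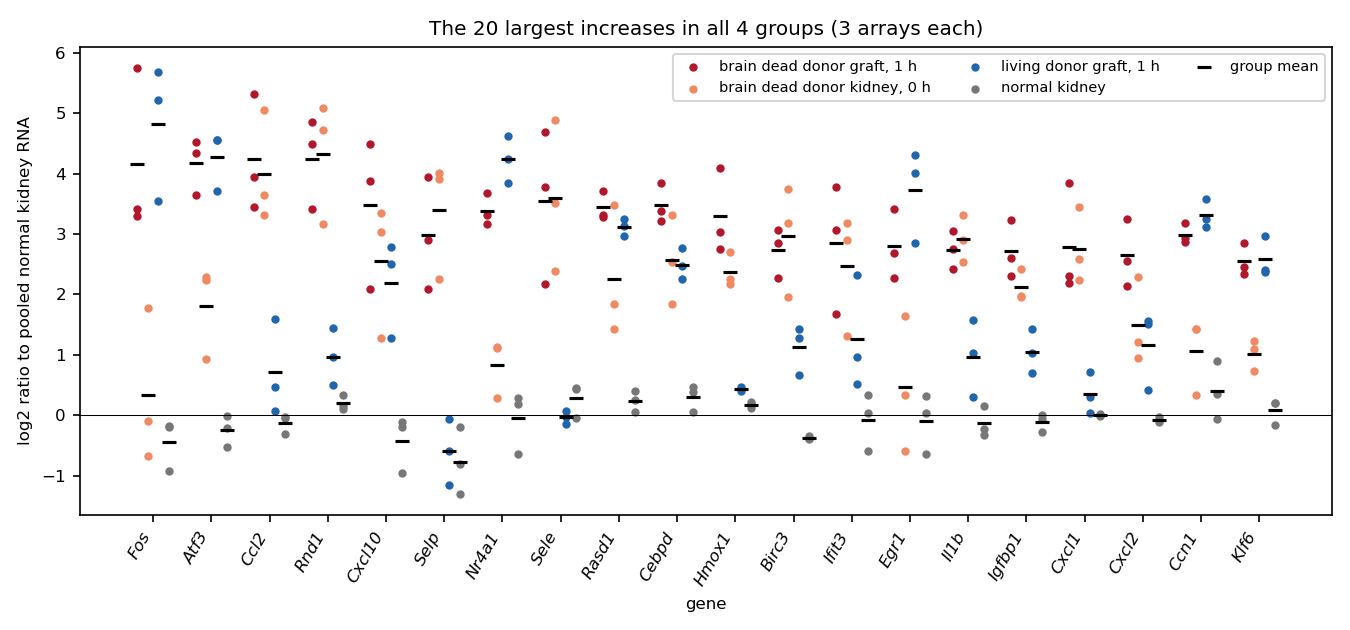
Log2 ratio to pooled normal kidney RNA (y axis) for the 20 largest increases (x axis), with 1 point per array and black bars for group means; within each gene the groups run from brain dead donor grafts at 1 h through brain dead donor kidneys at 0 h and living donor grafts at 1 h to normal kidneys. Ccl2, Rnd1, Selp and Sele are high in both groups of brain dead donors, and Fos, Nr4a1, Egr1 and Ccn1 are high in both groups of grafts.

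The large decreases, chosen for low values in brain dead donor grafts, included genes already low at 0 h. Tmem204 differed from normal kidneys by -2.19 in brain dead donor grafts, -1.87 in brain dead donor kidneys at 0 h and 0.07 in living donor grafts, and passed between the grafts (-2.25 ± 0.23, adjusted p = 0.00163, limma). Ska2 differed from normal by -1.67, -1.05 and -0.08 in the same order, Haus1 by -1.35, -0.58 and -0.05, Senp7 by -1.29, -0.75 and 0.05, and Gja5 by -1.55, -0.96 and -0.20. All 4 passed between the grafts of brain dead and living donors (adjusted p = 0.00161, 0.0021, 0.00211 and 0.00655, limma). None passed between brain dead donor grafts and kidneys at 0 h, where Haus1 differed by -0.78 ± 0.14 (adjusted p = 0.117, limma). Dbp differed from normal by -1.77, -1.22 and -1.46 and passed against normal kidneys in brain dead donor grafts. Its adjusted p was 0.193 and 0.274 in the other groups (limma). The living donor grafts disagreed for Dbp, with -2.03, -2.22 and -0.28 in grafts 22, 24 and 25. Hspa4 differed from normal by -0.88, -0.52 and 0.03 and passed between the grafts (adjusted p = 0.00163, limma).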

How the data were processed

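RNA of single rat kidneys (Cy3) was hybridised with pooled RNA of 3 normal kidneys (Cy5) on Agilent rat oligonucleotide arrays. Per the design text, the authors used Agilent Feature Extraction A.7.1.1 and GeneSpring 7.0, normalized each array by spot, by chip and with a lowess curve, and took the Cy3 over Cy5 ratio. The program that wrote the table is not given in these sources. The authors' deposited table holds log10 ratios, as read from values that end at 2 on either side and array medians near 0 (0 to 0.00987 on the log2 scale). Multiplied by 3.322 they are log2 ratios. The direction, kidney over pool, rests on the design text. The labels do not say whether the pooled kidneys are those hybridised singly.

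Of 21575 probes, 12750 had 1 gene symbol in the platform annotation supplied with the values, 5 had several and 8820 none. Probes of a gene were averaged (2266 genes have several), which left 9653 named genes and 8825 unnamed features. A model of the 4 group means over all 12 arrays was fitted in R 4.3.3 with limma 3.58.1 (lmFit, eBayes, 8 residual and 1.89 prior degrees of freedom, no covariate), and p-values were adjusted over 18478 features with the Benjamini-Hochberg method. The script was tested on simulated data. The labels say nothing more of the animals, and p-values therefore cover only the spread between these samples, which may be technical. Intensities, slides and scan dates were not used here, so dim or saturated spots could not be weighed and no batch was tested. The number of arrays limits the precision.

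The members and lists were chosen with earlier results of these data known. Named are the 20 largest increases and decreases among genes that passed without overlap of arrays and whose symbol does not start with LOC or RGD, up to 6 members with the largest differences among those that passed in each list, and other members where their list is described. Alternatives were the 2 groups alone, array weights, quantile normalization, median centring, single probes, named genes alone, zeros or limit values as missing, a robust prior, a 2-fold minimum and leaving out each array. Promoters were matched by symbol to a RefSeq table (GRCr8).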

Additional observations from a re-analysis of the deposited data

How the results depend on the processing

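The count of features that passed was 2814 (1136 higher, 1678 lower). It was 385 (203 and 182) with a 2-fold minimum, 1876 (794 and 1082) with the 2 groups alone and 1590 (739 and 851) over named genes alone, where fewer features were tested. It was 2687 with array weights, 2115 after quantile normalization, 2838 after median centring and 3206 with probes not averaged. Leaving out 1 array gave 1769 to 2366 (699 to 928 higher, 1006 to 1509 lower), lowest without normal kidney 1. The share of lower features was 47.3% with the 2-fold minimum, against 59.6%. Of 131 named genes, 90 passed in all 6 fits that left out an array, among them 34 of the 40 largest changes; 102 passed with the 2 groups alone and 99 after quantile normalization. Directions turned for Pim3 after quantile normalization (-0.01) and for Mllt10, Chac1 and Chd1 when the least changed probe was taken (0.09, -0.02 and -0.01). The cause was not tested. Exact zeros (0.729% of values on the 6 arrays) and values at the limit, taken as missing, left 2810 and 2815. No paired analysis was possible because the grafts are numbered 21, 23 and 27 and the normal kidneys 1, 2 and 3, so the groups share no number.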

Other observations

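Of the 12 named genes with the smallest limma p among those that passed without overlap, a set chosen after its values were seen, 7 stood on none of the gene lists. Fam43a had log2 ratios of 1.06, 0.99 and 0.85 in brain dead donor grafts, against -0.01, -0.01 and -0.04 in normal kidneys (0.99 ± 0.06, SE, n = 3 arrays per group, adjusted p = 6.92e-05). H3f3b, which encodes the replacement histone H3.3, had 1.72, 1.45 and 1.74 in the grafts, against -0.08, 0.05 and -0.15 in normal kidneys (1.70 ± 0.12). Rhob, an endosomal GTPase that stress induces, had 1.42, 0.78 and 1.19 in the grafts, against -0.92, -1.04 and -0.97 in normal kidneys (2.11 ± 0.17). Tgif1 differed by 1.00 ± 0.08 and Chd1, a chromatin remodeller, by 0.98 ± 0.08, though the least changed of its 3 probes gave -0.01. Litaf, a factor of endosomal sorting, differed by 0.95 ± 0.08 (adjusted p = 0.000401, limma) and Etf1, a release factor of translation, by 0.73 ± 0.06 (adjusted p = 0.000397, limma). In all 7 the grafts were higher than normal kidneys, and the lack of overlap follows from the choice.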
